A study of Mus musculus with 16 samples.

Results

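Fatty acid elongases and desaturases, the enzymes that lengthen fatty acids and insert their double bonds, were followed in mouse liver by 10 genes: Elovl1, Elovl2, Elovl3, Elovl5, Elovl6, Elovl7, Fads1, Fads2, Scd1 and Scd2. Members were chosen by gene symbol, as the array rows whose annotated symbol was on this list, with the row of highest mean over all samples for each gene. A row was found for 9 of the 10 members, out of 19505 genes with a row, and Scd2 is not analysed here. Total RNA of liver biopsies from C57BL/6 mice was measured on 16 arrays, with 8 control samples and 8 samples of a mouse model of nonalcoholic steatohepatitis (NASH), in which fat accumulation comes with inflammation. No genotype, treatment or agent is given for either group, and the labels do not say how the model was induced. Age, sex, time of collection and array batch are also not given. Sample names follow the labels' numbers, with 1a and 1b both in the NASH model group. Whether the samples are from different animals is not stated, and p-values therefore measure only how these samples vary.

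Fatty acid synthase ends mainly at palmitate. ELOVL enzymes in the endoplasmic reticulum then carry out the condensation step that adds a 2-carbon unit, each with its own preferred chain lengths, and a shared set of reductases and a dehydratase completes each turn. SCD enzymes turn saturated into monounsaturated fatty acids such as oleate, while FADS2 and FADS1 act in turn, with ELOVL5 and ELOVL2, on the essential polyunsaturated fatty acids to give arachidonate and docosahexaenoate. In liver the saturated and monounsaturated branch is known to follow insulin, carbohydrate and sterol signals through the transcription factors SREBP-1c, ChREBP and LXR.

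Scd1 and the elongases Elovl3 and Elovl6, which serve saturated and monounsaturated fatty acids, fell in the NASH model livers. Elovl1 and Elovl7, elongases of saturated very long chain fatty acids, rose. The other members rose, fell slightly or did not pass the test. Elovl3 was 55.3-fold lower, or 34.7-fold without NASH model 2 and 7, its lowest samples. Scd1 was 7.32-fold lower, Elovl6 2.56-fold lower and Elovl2 1.30-fold lower. Fads2 and Elovl1 were 1.52-fold and 1.38-fold higher. Elovl7 was 3.45-fold higher, or 2.18-fold with background values raised to a floor, since 7 of 8 controls lay at background. Fads1 and Elovl5 did not pass the test. A gene was called at an adjusted p under 0.05 in limma over all genes, so 7 of the 9 measured members were called, 3 higher and 4 lower. Of all genes, 26.6% were called in either direction, 13.2% higher and 13.4% lower. The groups did not overlap for 5 called members, against 9.53% of all genes that were called with no overlap. The median log2 fold change of the members was -0.25, and that of all genes was -0.04.

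**Figure D1:**
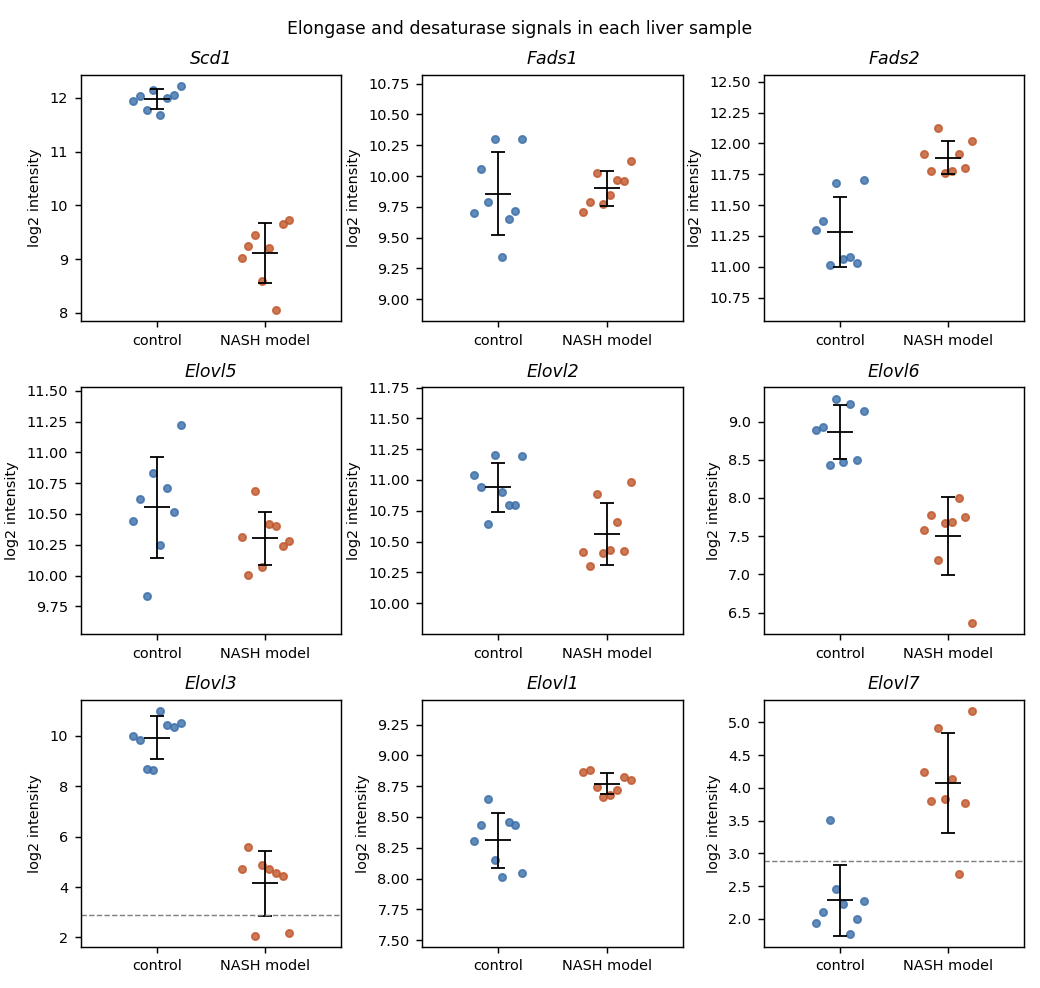
Log2 intensity of each measured member in every sample, with 8 control samples (blue) and 8 NASH model samples (orange). Horizontal bars are group means, vertical bars are 1 SD, and dashed lines in the Elovl3 and Elovl7 panels mark the background floor of 2.89. The groups lie apart for Scd1, Fads2, Elovl6, Elovl3 and Elovl1 and overlap for the other 4 genes.

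All levels are log2 intensities of 1 array row per gene, so they compare samples and not genes. A floor for background was set at 2.89, below which lay 95% of the values of 1412 receptor genes of the nose, symbols beginning with Olfr or Vmn, taken as silent in liver. The number of arrays, and not a read depth, limits the precision. In bulk liver, fewer cells of a type and less RNA per cell cannot be told apart. The hepatocyte transcript of albumin (Alb) was present in all samples, at 12.51 to 12.67 in controls and 12.63 to 12.67 in the model, so close to the array's highest value of 12.74 that a change could be missed. Of 14 hepatocyte markers 0 rose and 4 fell, led by F7, Foxa2 and Cebpa. All 10 that did not pass had brighter control means than the 4 that fell. The summed log2 level of the 14 markers was 152.5 to 153.9 in controls and 149.1 to 151.7 in the model. All 10 measured markers of recruited and lipid-laden macrophages rose, by a median of 3.12, with a summed level of 34.4 to 39.98 in controls and 72.2 to 78.0 in the model. Markers of stellate cells and fibroblasts rose in 9 of 10, by a list median of 1.68 (summed level 52.9 to 57.7 against 67.9 to 75.4). Of the other marker lists, 1 of 6 Kupffer cell genes rose and 3 fell, 4 of 7 cholangiocyte genes rose, and 1 of 7 endothelial genes rose and 4 fell. Among 8 lymphocyte markers 3 were higher and 1 lower, 2 of 5 neutrophil genes rose, and 1 of 4 adipocyte genes fell. The adipocyte markers Adipoq and Lep lay below the floor in all 16 samples. The part of the other cell types in the results for the members was not tested.

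Scd1 encodes the main stearoyl-CoA desaturase of the liver, which makes oleate and palmitoleate from stearate and palmitate. Its log2 intensity ran from 11.68 in control 6 through a median of 12.02 to 12.23 in control 10, and from 8.05 in NASH model 5 through a median of 9.23 to 9.73 in NASH model 7. Every model sample was below every control, and the model samples were more spread out, with an SD of 0.56 against 0.18. The group means were 11.99 and 9.11, a log2 fold change of -2.87 ± 0.19 (SE, 95% interval -3.27 to -2.48, limma adjusted p = 9.5e-10). The control values lie near the top of the array's range. Closely related Scd genes may share probe sequence, so its signal is less certain.

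Elovl3 encodes an elongase of saturated and monounsaturated very long chain fatty acids, known in mouse liver for higher expression in males and for a daily rhythm. Its log2 intensity ran from 8.63 in control 5 through a median of 10.17 to 10.97 in control 6, and from 2.07 in NASH model 2 through a median of 4.63 to 5.60 in NASH model 1b. The groups lay far apart, and NASH model 2 and NASH model 7 (2.19) were below the floor, while the other 6 model samples were at 4.42 or higher. The means were 9.93 ± 0.86 and 4.14 ± 1.29 (SD, n = 8 per group), a log2 fold change of -5.79 ± 0.47 (SE, 95% interval -6.78 to -4.80, limma adjusted p = 2e-08). With the values of those samples raised to the floor the fall was 48.5-fold. Without NASH model 2 and 7 it was 34.7-fold (-5.12 ± 0.33, limma adjusted p = 7.8e-09). Among controls, controls 4 and 5 were lowest, at 8.69 and 8.63, and the other 6 were at 9.85 or higher.

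Male-biased liver genes and clock genes changed in the same samples. Of 15 male-biased genes 14 fell and 0 rose, by a list median of -2.23. The mean log2 level of the list was 9.06 to 9.69 in controls and 5.96 to 7.40 in the model, with 6.05 in NASH model 2 and 5.96 in NASH model 7. The steroid dehydrogenase Hsd3b5 (-7.07 ± 0.16, SE), Moxd1 (-4.47 ± 0.70) and the organic anion transporter Slco1a1 (-3.62 ± 0.63) fell most. Moxd1 varied widely among controls, from 4.24 in control 10 to 9.82 in control 4, against 3.01 to 4.14 in the model. Without NASH model 2 and 7, Slco1a1 was at -2.52 ± 0.16, and Cyp7b1 (-3.10) and Susd4 (-2.94), picked after their values were seen, fell more. Of 17 circadian clock genes 5 rose and 6 fell, with a median of -0.10. The core activator Arntl fell by 1.79 ± 0.35 and the repressor Nfil3 by 1.36 ± 0.19, while Ciart rose by 1.48 ± 0.43. The groups overlapped for Arntl and Ciart, and the controls were widely spread. Arntl ran from 3.94 to 6.64 in controls and from 3.24 to 4.37 in the model. Ciart ran from 3.65 to 7.14 in controls and from 5.71 to 6.89 in the model. Control 5 was the lowest control in Arntl and the highest in Ciart. The part of sex and of time of day in the fall of Elovl3 was not tested.

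Elovl6 encodes the elongase that turns palmitate into stearate, the step between fatty acid synthase and SCD1. Its log2 intensity ran from 8.44 in control 4 through a median of 8.91 to 9.30 in control 5, and from 6.37 in NASH model 7 through a median of 7.68 to 8.00 in NASH model 5. The groups did not overlap, and NASH model 7 lay lowest, followed by NASH model 2 at 7.18. The means were 8.86 ± 0.35 and 7.51 ± 0.51 (SD), a log2 fold change of -1.35 ± 0.20 (SE, 95% interval -1.77 to -0.94, limma adjusted p = 3.1e-05). Without NASH model 2 and 7 it was -1.11 ± 0.15 (limma adjusted p = 2.7e-05).

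Elovl1 and Elovl7 encode elongases of saturated very long chain fatty acids, and both rose. Elovl1, which serves the long acyl chains of sphingolipids, ran from 8.01 in control 6 through a median of 8.37 to 8.64 in control 4, and from 8.66 in NASH model 3 through a median of 8.77 to 8.88 in NASH model 1b. The groups were separate by a narrow gap, and the model samples were tightly grouped, with an SD of 0.08 against 0.22 in controls. Elovl1 rose by 0.46 ± 0.10 on the log2 scale (SE, 95% interval 0.26 to 0.66, limma adjusted p = 0.0011). Elovl7 was near background in controls, from 1.77 in control 7 through a median of 2.16 to 3.504 in control 4, and ran from 2.69 in NASH model 5 through a median of 3.98 to 5.17 in NASH model 7. Of its values, 7 of 8 controls and 1 of 8 model samples were below the floor, and control 4 and NASH model 5 made the groups overlap. Elovl7 rose by 1.79 ± 0.29 (SE, 95% interval 1.18 to 2.39, limma adjusted p = 9.4e-05). With values below the floor raised to it the rise was 2.18-fold, and without NASH model 2 and 7 it was 2.75-fold.

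Fads2 encodes the first desaturase of the polyunsaturated pathway. Its log2 intensity ran from 11.02 in control 4 through a median of 11.19 to 11.70 in control 10, and from 11.76 in NASH model 3 through a median of 11.86 to 12.12 in NASH model 2. The groups did not overlap, although controls 5 and 10, at 11.68 and 11.70, came close to the lowest model samples. Like the control values of Scd1, the Fads2 values lie near the top of the array's range, which may limit the size of a rise. Fads2 rose by 0.60 ± 0.11 (SE, 95% interval 0.37 to 0.84, limma adjusted p = 0.00044). Fads1, the desaturase that acts after it and forms arachidonate, ran from 9.34 in control 6 through a median of 9.75 to 10.30 in control 10, and from 9.71 in NASH model 1a through a median of 9.91 to 10.12 in NASH model 7. The model samples lay within the range of the controls. Fads1 differed by 0.04 ± 0.13 (SE, 95% interval -0.22 to 0.31, limma adjusted p = 0.85).

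Elovl5 and Elovl2 encode the elongases of polyunsaturated fatty acids, Elovl2 with the step that leads to docosahexaenoate. Elovl5 ran from 9.83 in control 4 through a median of 10.57 to 11.22 in control 10, and from 10.01 in NASH model 1b through a median of 10.29 to 10.69 in NASH model 2. The model samples again lay within the control range, and the difference of -0.25 ± 0.15 did not pass (SE, 95% interval -0.57 to 0.07, limma adjusted p = 0.26). Elovl2 ran from 10.64 in control 4 through a median of 10.92 to 11.20 in control 5, and from 10.30 in NASH model 1b through a median of 10.43 to 10.98 in NASH model 7. Of the 8 model samples, NASH model 2, 5 and 7, at 10.89, 10.66 and 10.98, lay within the control range. Elovl2 fell by 0.38 ± 0.12 (SE, 95% interval -0.62 to -0.13, limma adjusted p = 0.020). This call was lost with arrays centred on the spike-in controls (limma adjusted p = 0.13), and the fall was larger without NASH model 2 and 7 (-0.50 ± 0.10, limma adjusted p = 0.0017).

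**Figure D2:**
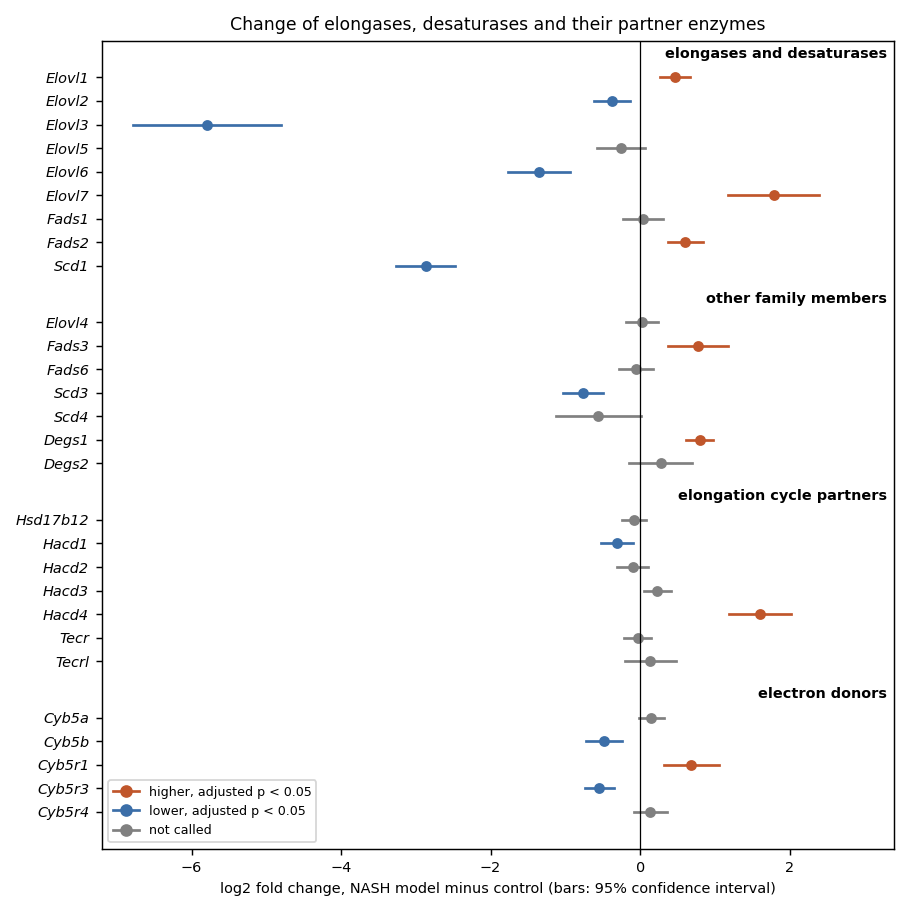
Log2 fold change of each gene, NASH model minus control, with its 95% confidence interval, for the 9 members, the 7 other family members, the 7 partner enzymes of the elongation cycle and the 5 electron donors. Elovl3 and Scd1 lie farthest to the left, at -5.79 and -2.87, and Elovl7 and Hacd4 farthest to the right, at 1.79 and 1.60.

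Some enzymes with related substrates did not move equally. For each pair the log2 difference of both genes was taken within every sample, and its change between the groups was tested, which compares changes and not levels. Of the 5 pairs planned, 4 could be compared, since Scd1 and Scd2 needed the missing member. Fads1 minus Fads2 ran from -1.72 through a median of -1.39 to -1.23 in controls and from -2.21 through a median of -1.97 to -1.84 in the model, with no overlap. Fads1 therefore changed by 0.56 ± 0.07 less than Fads2 on the log2 scale, with an interval for the change of -0.71 to -0.41. The exact permutation test over samples gave p = 0.00016, the smallest it allows, or 0.00031 adjusted over the 4 pairs (two-sided).

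Elovl3 fell more than Elovl6. Their difference ran from -0.67 through a median of 1.16 to 2.50 in controls and from -5.11 through a median of -3.16 to -2.18 in the model, a change of -4.43 ± 0.47 (SE, 95% interval -5.44 to -3.43, exact permutation adjusted p = 0.00031). Elovl1 minus Elovl7 changed by -1.33 ± 0.32 (SE, 95% interval -2.02 to -0.63, exact permutation p = 0.0019, adjusted p = 0.0025), with Elovl7 rising more. These groups overlapped, with 5.14 to 6.69 in controls and 3.63 to 6.03 in the model. Most control values of Elovl7 were background, which limits the size of this change. Elovl2 minus Elovl5 ran from -0.03 to 0.81 in controls and from 0.02 to 0.71 in the model. Its change was -0.12 ± 0.12, and the interval of -0.39 to 0.14 holds both a slightly larger and a slightly smaller fall of Elovl2 (exact permutation p = 0.33, adjusted p = 0.33).

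**Figure D3:**
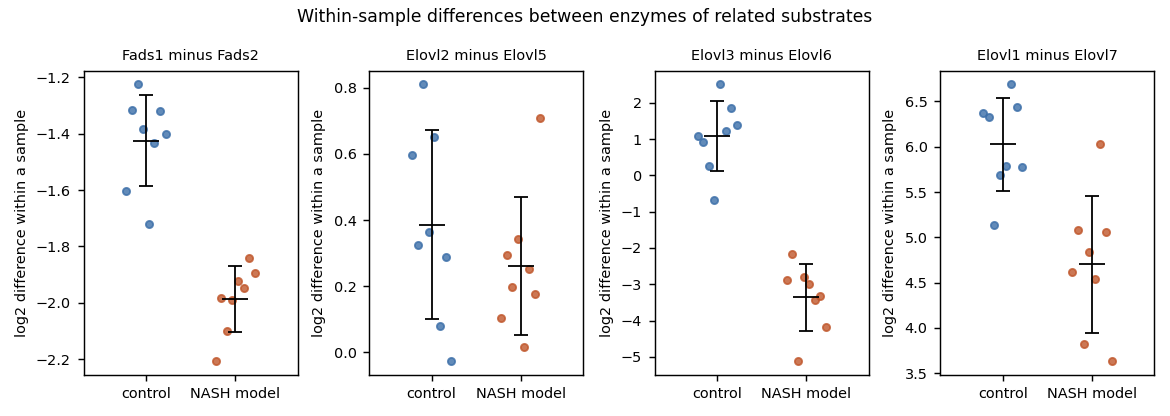
Within-sample log2 difference between the members of 4 pairs of enzymes with related substrates, for 8 control (blue) and 8 NASH model samples (orange), with the mean and 1 SD. The groups are separate for Fads1 minus Fads2 and for Elovl3 minus Elovl6 and overlap for the other pairs.

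Fads1 and Fads2 are direct neighbours in the mouse genome, with Fads3 on the other side of Fads2, and Scd1 lies next to Scd4 in a cluster with Scd2 and Scd3 (RefSeq, GRCm38.p6). Fads3, a desaturase acting on sphingoid bases, rose by 0.77 ± 0.19 (SE, limma adjusted p = 0.0049), from 3.11 to 4.70 in controls to 4.48 to 5.06 in the model. Among the 3 neighbours, Fads2 and Fads3 thus rose and Fads1 did not pass. Scd3 fell with Scd1. It was below the floor in all 8 model samples and in 2 controls. Its log2 fold change was -0.76 ± 0.13 (SE, limma adjusted p = 0.00015). With values below the floor raised to it, the fall was 1.25-fold. Scd3 may share probe sequence with Scd1, so its fall is less certain. Scd4 differed by -0.56 ± 0.27 and did not pass (limma adjusted p = 0.14), with 2 controls and 6 model samples below the floor. Degs1, the desaturase that completes ceramide synthesis, rose by 0.80 ± 0.09 with no overlap (limma adjusted p = 9e-07), from a control range of 8.14 to 8.65 to a model range of 9.05 to 9.43. Degs2 differed by 0.27 ± 0.20 and Fads6 by -0.06 ± 0.11, and neither passed. Elovl4 gave only background in both groups, with every value under the floor. In all, 2 of the 7 other family members rose and 1 fell, with a median of 0.02.

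Promoter sequences are shown for 3 members that behaved differently: Elovl6, which fell, Fads2, which rose, and Elovl5, which did not pass. RefSeq promoters of GRCm38.p6 were matched by symbol for 6 of the 10 members, with 8 entries. Each is the 250 bases before the annotated start, written 5′ to 3′ on the gene's strand. Capitals mark every match, on either strand, to the NF-Y box CCAAT, the Sp1 box GGGCGG, the E-box CACGTG, the sterol regulatory element TCACNCCAC or the nuclear receptor motif AGGTCA.
Elovl6, chr3:129532136-129532385, plus strand: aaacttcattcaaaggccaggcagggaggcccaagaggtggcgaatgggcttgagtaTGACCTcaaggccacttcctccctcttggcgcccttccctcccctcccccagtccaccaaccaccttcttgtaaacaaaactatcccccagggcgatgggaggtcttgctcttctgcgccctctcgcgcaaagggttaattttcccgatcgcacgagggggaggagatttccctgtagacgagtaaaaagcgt
Fads2, chr19:10101504-10101753, minus strand: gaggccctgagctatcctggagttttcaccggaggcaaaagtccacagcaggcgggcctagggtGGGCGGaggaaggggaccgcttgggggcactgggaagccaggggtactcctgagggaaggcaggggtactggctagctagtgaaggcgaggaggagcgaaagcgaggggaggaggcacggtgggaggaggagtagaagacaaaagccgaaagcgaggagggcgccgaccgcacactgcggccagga
Elovl5, chr9:77917115-77917364, plus strand: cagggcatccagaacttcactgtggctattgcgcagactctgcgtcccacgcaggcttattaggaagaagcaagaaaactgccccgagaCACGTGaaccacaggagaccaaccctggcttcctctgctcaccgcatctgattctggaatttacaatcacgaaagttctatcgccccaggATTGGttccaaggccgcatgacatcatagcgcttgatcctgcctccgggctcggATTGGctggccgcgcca
The Elovl6 window holds 1 AGGTCA match, read as its reverse complement, beginning 193 bases before the start. The Fads2 window holds 1 GGGCGG match, beginning 186 bases before the start. The Elovl5 window holds CACGTG beginning 161 bases before the start and CCAAT, in reverse complement, 71 and 17 bases before it. None of the capitals in these 3 windows belongs to overlapping matches. Among 32851 mouse promoters of the same length, 14.02% held AGGTCA, 32.7% GGGCGG, 6.02% CACGTG, 33.9% CCAAT and 1.05% TCACNCCAC, which was found in none of the 8 windows. These matches describe letters in the windows only, and no binding was measured.

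Members varied together within the groups in a few sets of samples. Control 4 was lowest in Elovl2, Elovl5, Elovl6 and Fads2 and highest in Elovl1 and Elovl7, and control 10 was highest in Elovl5, Fads1, Fads2 and Scd1. NASH model 7 was lowest in Elovl6 and highest in Elovl2, Elovl7, Fads1 and Scd1. NASH model 2 was lowest in Elovl3 and highest in Elovl5 and Fads2. Scd1 and Elovl6, enzymes of consecutive steps, were thus highest and lowest in the same model sample.

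**Figure D4:**
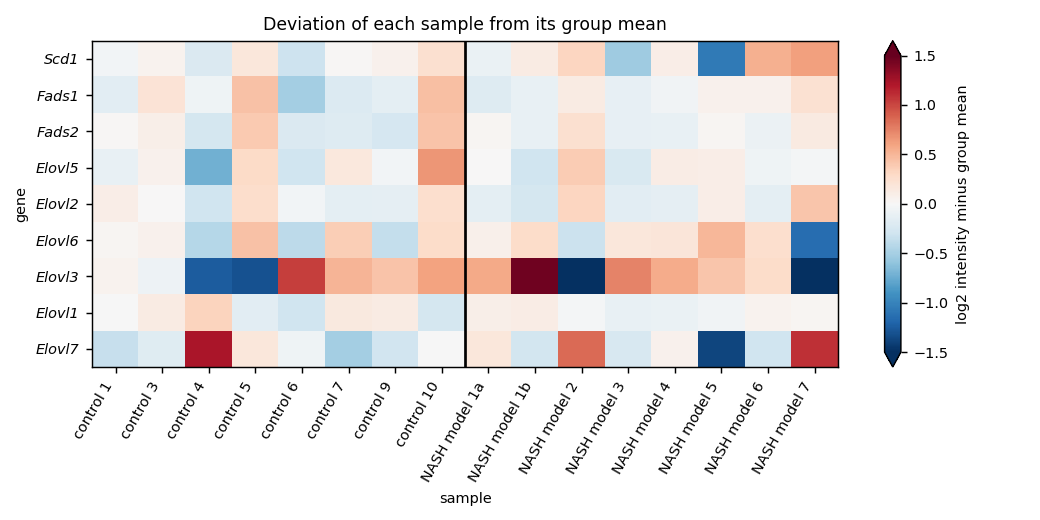
Log2 intensity of each member minus the mean of its own group, for each of the 16 samples, with red above and blue below the group mean. The colour scale ends at -1.5 and 1.5, and the Elovl3 values of NASH model 2 and 7 lie beyond its lower end.

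Over the 36 pairs of measured members in each group, 72 correlations were computed, each over 8 samples with exact permutation tests. An unadjusted p under 0.05 was found for 22 Pearson and 13 Spearman correlations, and an adjusted p under 0.05 for 3 and 0, respectively. In controls Elovl2 and Fads2, both of the polyunsaturated branch, varied together (Pearson r = 0.93, exact permutation p = 0.00089, adjusted p = 0.048; Spearman rho = 0.88, p = 0.0072, adjusted p = 0.087). Without controls 4 and 5, the samples farthest from the Elovl2 median, r was 0.92. In the model Elovl6 and Elovl7 varied in opposite directions (Pearson r = -0.86, exact permutation p = 0.0020, adjusted p = 0.048; Spearman rho = -0.95, p = 0.0011, adjusted p = 0.082). Without NASH model 2 and 7, r was -0.96. The Elovl6 and Elovl7 correlation in controls was -0.39 (exact permutation p = 0.38; Spearman rho = -0.19, p = 0.66), with Elovl7 near background there, and the difference between the groups was not tested.

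The third pair was Elovl2 and Elovl3 in the model, with Pearson r = -0.94 (exact permutation p = 0.002, adjusted p = 0.048). Spearman rho was -0.90 (exact permutation p = 0.0046, adjusted p = 0.087). NASH model 2 and 7 form a cluster of their own in Elovl3. Over the other 6 samples r was -0.64, and that relation was not tested separately. Over the same 6 samples Elovl3 had r = -0.08 with Elovl6, -0.41 with Fads2, -0.51 with Fads1 and -0.74 with Elovl5, also not tested separately. In controls Elovl5 and Scd1 had r = 0.88 (exact permutation p = 0.0039, adjusted p = 0.056; Spearman rho = 0.88, p = 0.0072, adjusted p = 0.087), which was 0.89 without controls 4 and 10. The neighbours Fads1 and Fads2 had r = 0.88 in controls (exact permutation p = 0.0051, adjusted p = 0.059; Spearman rho = 0.62, p = 0.11, adjusted p = 0.40), but 0.57 without controls 5 and 10.

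For each member the genes with the most similar pattern were sought among all genes, by the Pearson r of values centred on their group means over the 16 samples, which ignores the difference between the groups. These are the highest of 19505 values each and serve as a description. Fads2 was most like Slc7a11, the cystine transporter (r = 0.93), which rose by 1.82 ± 0.15 (SE), followed by Npffr1 (0.86) and the acyl-CoA synthetase Acsl5 (0.86). Elovl5 was most like the malic enzyme Me1 (0.92), followed by Zfp641 (0.90) and Foxc2 (0.87). Elovl6 was most like Rdh19 (0.94), Scap, the escort protein of the SREBP factors (0.89), and Acad12 (0.86), values that were 0.84, 0.75 and 0.62 without NASH model 2 and 7. Elovl2 was most like Hsd17b13, a lipid droplet protein of hepatocytes (0.93), Fabp2 (0.88) and Atf6 (0.88).

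Elovl3 was most like the male-biased hydroxylase Cyp4a12a (r = 0.92, or 0.76 without NASH model 2 and 7), Rarres1 (0.90, or 0.71) and the male-biased urinary protein gene Mup20 (0.90, or 0.81). Cyp4a12a fell by 2.53 ± 0.40 (SE), while Mup20 differed by 0.01 ± 0.08 and did not pass (limma adjusted p = 0.94). Mup20 lay at 11.76 to 12.02 in controls and 11.72 to 12.14 in the model, near the top of the array's range, so a change could be missed. It also belongs to a family of near-identical genes, so its signal is less certain. Elovl7 was most like Tbxas1, the thromboxane synthase (0.91), Ckb (0.82) and the lysosomal protease Ctsb (0.82). Tbxas1 and Ctsb also rose, by 1.26 ± 0.11 and 0.81 ± 0.09 (SE). Elovl1 was most like Serpina10 (0.95), Steap4 (0.94) and Slc41a2 (0.92), of which Slc41a2 fell by 0.99 ± 0.32 and the others did not pass. Fads1 was most like Wdr5 (0.86), Slc13a2 (0.86) and Ddx46 (0.85). Scd1 was most like the growth factor gene Btc (0.86), the autophagy adaptor Sqstm1 (0.83) and Hnf4g (0.82), so that the within-group pattern of Scd1 was closest to genes that rose (Btc by 0.46 ± 0.15, Sqstm1 by 0.70 ± 0.10) or did not pass (Hnf4g).

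**Figure D5:**
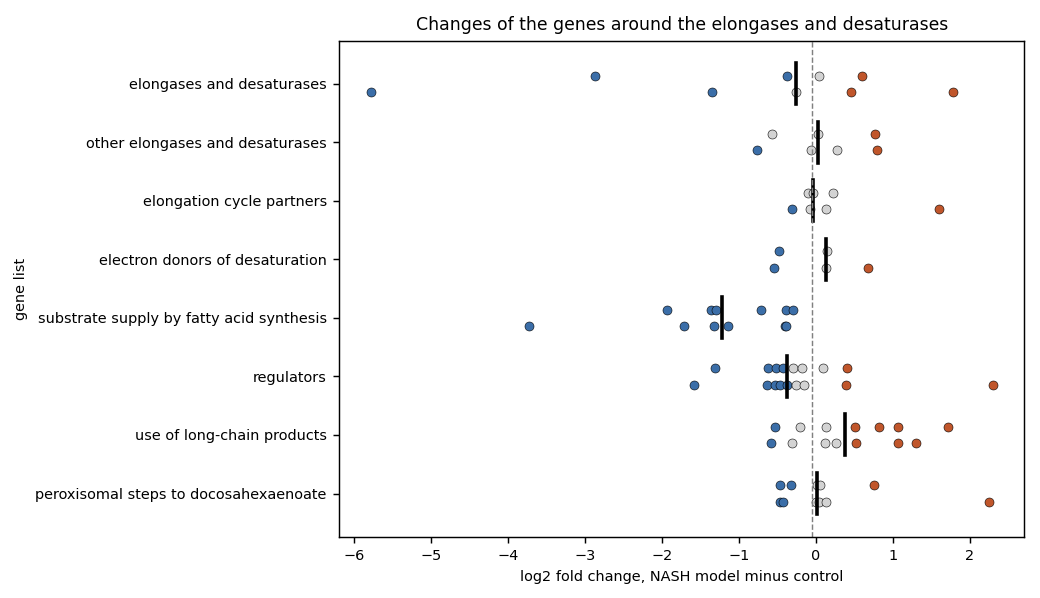
Log2 fold change, NASH model minus control, of every measured gene in 8 lists around the elongases and desaturases. Orange points were called higher, blue points lower and grey points not called, black bars are list medians, and the dashed line is the median of all genes (-0.04). All 12 genes of the list labelled substrate supply lie to the left of the line, although not all of them make substrate for Elovl6 and Scd1.

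The enzymes that complete the elongation cycle mostly did not pass. Hsd17b12, the ketoacyl reductase, differed by -0.08 ± 0.08 (SE) and Tecr, the enoyl reductase, by -0.03 ± 0.09. Of the dehydratases, Hacd4 rose by 1.60 ± 0.20 (limma adjusted p = 4.8e-06), from 3.03 to 4.80 in controls to 5.17 to 5.95 in the model, and Hacd1 fell by 0.31 ± 0.10 (limma adjusted p = 0.032). The Hacd1 call was lost without NASH model 2 and 7 (-0.30 ± 0.12, limma adjusted p = 0.071). Hacd2 (-0.10 ± 0.10) and Hacd3 (0.23 ± 0.09) did not pass, nor did Tecrl (0.14 ± 0.16), which was below the floor in all 8 controls. In all, 1 of 7 rose and 1 fell, with a median of -0.03. Among the electron donors of the desaturases, the reductase Cyb5r3 fell by 0.54 ± 0.09 without overlap (limma adjusted p = 0.00017) and Cyb5b by 0.48 ± 0.12 (limma adjusted p = 0.0036). Cyb5r1 rose by 0.68 ± 0.18 (limma adjusted p = 0.0061), while Cyb5a (0.15 ± 0.08) and Cyb5r4 (0.13 ± 0.11) did not pass.

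Upstream, all 12 measured genes on a list of fatty acid synthesis and its supply fell, with a median of -1.22. Not all of them make substrate for Elovl6 and Scd1. The list also held Mlycd (-0.38 ± 0.11), Mcat (-0.30 ± 0.10) and Oxsm (-0.38 ± 0.09), which do not. The largest falls were those of Thrsp, a lipogenic protein (-3.73 ± 0.43), pyruvate kinase Pklr (-1.93 ± 0.14) and Me1 (-1.71 ± 0.22), in the same direction as Elovl6 at -1.35. Without NASH model 2 and 7, Thrsp was at -3.06 ± 0.24. Of 17 measured regulators 3 rose and 9 fell, with a median of -0.37. Mlxipl, which encodes ChREBP, fell by 1.32 ± 0.14 without overlap (limma adjusted p = 6e-07), Nr1h3, which encodes LXR-alpha, by 0.43 ± 0.11 and Ppara by 0.53 ± 0.11. Insig2, a retention protein of the SREBP system, fell by 1.58 ± 0.24, while Insig1 differed by -0.15 ± 0.14 and did not pass (limma adjusted p = 0.48). Pparg rose by 2.31 ± 0.15. Srebf1 is not analysed here. The hepatocyte factors Cebpa and Foxa2 fell by 0.67 ± 0.10 and 0.76 ± 0.14 in the same samples, and their part in these changes was not tested.

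Downstream, 7 of 14 genes that activate long-chain fatty acids or build them into phospholipids and ceramides rose and 2 fell, with a median of 0.39. Of the 2 that fell, Acsl6 was below the floor in 8 model samples and 4 controls. With such values raised to the floor its fall was 1.02-fold. Mboat1 and Lpcat4, which rose, were each below the floor in 3 controls. The ceramide synthases Cers5 and Cers6 rose by 1.72 ± 0.22 and 1.31 ± 0.16 without overlap, beside the rise of Degs1. Both mainly take chains of palmitate length, and not the very long chains that Elovl1 makes. Cers2, the ceramide synthase of very long chains in liver, differed by -0.21 ± 0.09 and did not pass (limma adjusted p = 0.12); it was named after its value was seen. Lpcat1, a lysophospholipid acyltransferase, rose by 1.07 ± 0.17. Of 11 genes of the peroxisomal steps that end docosahexaenoate synthesis after ELOVL2, 2 rose and 4 fell, with a median of 0.02. The transporter Abcd2 rose by 2.26 ± 0.38, from a control range of 3.80 to 7.29 to a model range of 7.61 to 7.94, and Ehhadh by 0.76 ± 0.26, a call lost without NASH model 2 and 7 (0.61 ± 0.28, limma adjusted p = 0.14). The import receptor Pex5 fell by 0.46 ± 0.13, and this call too was lost without those samples (-0.42 ± 0.15, limma adjusted p = 0.053). All 10 macrophage markers rose in the same samples, and their part in these rises was not tested.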

How the data were processed

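Total RNA from 16 mouse liver samples was isolated with TRIzol and, after an integrity check, biotin-labelled by Affymetrix's standard procedure, per the labels' protocols. The authors deposited log2 values for 29129 probe sets, and the normalization behind them, the array build and the log base are not given in the sources used here. The log base was taken from the range of the values, 0.62 to 12.74. Of the probe sets, 19572 had 1 symbol in the platform annotation, 0 several and 9557 none.

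The medians of the arrays spanned 0.14. A span over 0.1 called for further scaling, so the values were quantile normalized over all rows, which moved no value by more than 0.16. Each of 19505 genes was represented by its row of highest mean, without a filter. Groups were compared with limma 3.58.1 in R 4.3.3 (lmFit and eBayes, group as the only term, two-sided, Benjamini-Hochberg over all genes, called under 0.05). Pairs and correlations used exact permutation over samples with scipy 1.17.1. The fit was tested on simulated data. NASH model 1a and 1b differed with an SD of 0.387 over genes, against 0.340 to 0.466 in other pairs of the group, and were kept as separate samples.

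The members and gene lists were chosen with earlier results of these data known, and lists are described by counts and medians. Named genes were all members, the 3 called genes of largest change per list, 6 set regulators, all genes of the lists of other family members, cycle partners and electron donors, and the 3 most similar genes per member. Some genes on the lists, among them Scd2 and Srebf1, are not analysed here. Alternatives were other scalings, a filter on the dimmest 40% of genes, other gene summaries and fit options, an exact permutation test, 1a and 1b averaged, samples left out and a replicate block.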

Additional observations from a re-analysis of the deposited data

Results flagged for a closer look

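Elovl7 in control 4, at a log2 intensity of 3.504, stood apart from the other 7 controls, which were between 1.77 and 2.46. Its gap to the nearest control was 0.605 of the group's range, above Dixon's critical value for 8 samples. It was the only such sample among the 18 groups checked (9 members in 2 groups). By chance about 1 in 20 groups is flagged, so a flag among 18 groups is not unusual. Control 4 was the only control above the background floor of 2.89 in this gene. The same sample was also the highest control in Elovl1 and the lowest in Elovl2, Elovl5, Elovl6 and Fads2.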

How the results depend on the processing

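Of 28 alternatives, none changed the direction of a called member, and the calls of Scd1, Elovl3, Elovl6, Elovl1 and Fads2 held in each. Log2 fold changes ranged from -5.996 to -5.12 for Elovl3, -3.03 to -2.72 for Scd1, -1.45 to -1.11 for Elovl6, 1.46 to 1.98 for Elovl7, 0.51 to 0.68 for Fads2 and 0.35 to 0.53 for Elovl1. Elovl2 was not called with spike-in centring (-0.30 ± 0.14), with the replicate block (-0.38 ± 0.13, limma adjusted p = 0.081) or in the same samples without the block (limma adjusted p = 0.052), a fit added after seeing the data; the cause was not tested. Elovl7 dropped out with the filter on the dimmest 40% of genes, which left 2 members higher. Fads1, never called, ranged from -0.03 to 0.17. Calls over all genes ranged from 3626 to 6001. Spike-in centring moved the median of all genes from -0.04 to 0.06 and the share of higher calls from 49.6% to 73.7%, and median centring moved that share to 39.2%. Same-numbered samples did not deviate together over all genes (r from -0.03 to 0.06). Paired samples need not share such deviations, so this does not show whether the numbers pair the samples. The replicate block called 3626 genes, with 3 members higher and 3 lower. The exact permutation test called 5098 genes and all 7 members called by limma. Pair changes kept their side of the threshold in the 18 alternatives run for them (values as deposited and samples left out). Background limits Elovl7 in controls and Elovl3 in 2 model samples.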
